A study of Mus musculus with 9 samples.

Results

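The Bhlhe and Olig genes encode basic helix-loop-helix (bHLH) transcription factors, and 7 of them were followed here across mouse retinal organoids: Bhlhe22, Bhlhe23, Bhlhe40, Bhlhe41, Olig1, Olig2 and Olig3. Their probes were chosen by the gene name in the scanner files, which gave 8 probes for 7 genes among the 37325 gene names on the array, with 1 spot a probe on each of 9 arrays. Bhlhe41 had a pair of probes and each other gene had 1. The organoids, retina-like tissue grown in floating culture from mouse ES or iPS cells by quick reaggregation, came from 3 lines: wild type (WT, named NCT by the submitters), B4KO, a knockout of Bhlhb4, the earlier name of Bhlhe23, and Isl1KO, a knockout of Islet-1. Both knockouts were engineered so that fewer bipolar cells form, the neurons that pass signals from photoreceptors to the inner retina. There was 1 sample of each line, a pool of 5 organoids, on each of 3 differentiation days (DD10, DD16 and DD23), so no line and day had a replicate. The labels do not say which part of either gene was removed, or how many clones a knockout line represents.

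Factors of this family bind DNA in pairs at E-boxes, short sites of the form CANNTG, and most of them are known as repressors. Bhlhe23 is required in mouse for the maturation and survival of rod bipolar cells, and Bhlhe22 for a type of OFF cone bipolar cell and for some amacrine cells. Olig2 marks retinal progenitors that are about to divide for the last time, Olig1 and Olig2 specify oligodendrocytes in the brain and spinal cord, and Olig3 patterns the dorsal neural tube. Bhlhe40 and Bhlhe41, also called DEC1 and DEC2, bind the E-box CACGTG and repress circadian clock genes, and Bhlhe40 is also a target of the hypoxia response.

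Probe sequences are shown for the genes that were not well above background on every array (Bhlhe23, Bhlhe41, Olig1 and Olig3), and for Olig2 and Bhlhe40, which rose most from DD10 to DD16. The Bhlhe23 probe lies on chromosome 2 at 180509639 to 180509698 of build mm9, minus strand, from base 1907 of its transcript, and could read RNA that keeps the 3′ part of the gene. The Bhlhe41 probes lie on the minus strand of chromosome 6, at 145812652 to 145812711 from base 438 of the transcript and at 145806764 to 145806823 from base 6063. Olig2 (chromosome 16, 91228470 to 91228529) and Olig1 (chromosome 16, 91271799 to 91271858) have probes 43.3 kb apart on the plus strand. Bhlhe22 (chromosome 3, 17956925 to 17956984), Olig3 (chromosome 10, 19078024 to 19078083) and Bhlhe40 (chromosome 6, 108616309 to 108616368) are also read on the plus strand. Positions are those of the array design, and no annotation of build mm9 was used, so exons and untranslated regions are not assigned. The last 30 bases of these probes are printed, except for the Bhlhe41 probe at base 438, which is printed with its whole 60 bases. It has 1 reading frame without a stop codon, as do the whole probes of Olig2, Olig3 and Bhlhe41 at base 6063. No base is in capitals, since no motif is marked.
Bhlhe23 probe: gtgattaagtcttattcataaagacgtatg
Olig1 probe: aacgttctcattaaagtaagcggagttggg
Olig2 probe: tagtttgagctttttgggagggggtattct
Olig3 probe: gtgattctttccccaagcccatgtctgtct
Bhlhe40 probe: ggttccatctcctttaaggacgttttattt
Bhlhe41 probe at base 438: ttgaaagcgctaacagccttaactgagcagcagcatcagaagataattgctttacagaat
Bhlhe41 probe at base 6063: tagcagtaagaataacattctcttgaacta

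A RefSeq promoter of build GRCm38.p6 was matched for 4 of the 7 genes, and 3 are shown over the 250 bases before the transcription start because Bhlhe40 and Bhlhe41 are E-box binding repressors and Bhlhe41, Bhlhe23 and Olig2 each changed between days. Capitals mark CANNTG, a palindrome in its fixed letters that covers both strands, and includes CACGTG. Of 32851 promoters of this length, 66.2% held CANNTG and 6.02% held CACGTG. The Bhlhe41 promoter (6, 145865421 to 145865670, minus strand) held 3 CANNTG sites, of which 1 was CACGTG, 153 bases before the start. The Bhlhe23 promoter (2, 180776901 to 180777150, minus strand) held 1, at 190 bases before the start, and the Olig2 promoter (16, 91225300 to 91225549, plus strand) held 0. The Olig3 promoter, not printed, held 1. A match describes the letters and was not tested as a binding site.
Bhlhe41 promoter: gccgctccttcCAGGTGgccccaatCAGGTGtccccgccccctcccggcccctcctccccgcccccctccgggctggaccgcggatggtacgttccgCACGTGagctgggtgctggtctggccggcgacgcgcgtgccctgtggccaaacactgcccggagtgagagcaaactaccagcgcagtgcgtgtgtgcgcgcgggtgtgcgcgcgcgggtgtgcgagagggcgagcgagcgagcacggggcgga
Bhlhe23 promoter: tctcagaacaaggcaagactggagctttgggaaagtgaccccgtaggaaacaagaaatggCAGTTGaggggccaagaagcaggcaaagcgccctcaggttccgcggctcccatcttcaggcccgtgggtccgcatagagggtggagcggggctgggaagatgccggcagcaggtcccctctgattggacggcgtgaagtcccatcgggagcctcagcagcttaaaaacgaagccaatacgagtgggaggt
Olig2 promoter: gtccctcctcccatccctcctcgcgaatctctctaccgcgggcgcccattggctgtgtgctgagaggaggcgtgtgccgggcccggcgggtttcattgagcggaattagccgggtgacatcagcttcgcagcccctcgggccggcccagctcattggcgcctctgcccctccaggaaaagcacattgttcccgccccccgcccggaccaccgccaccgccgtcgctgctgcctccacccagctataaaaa

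Values below are log2 of the processed spot intensity over the array's 75th percentile, so 0 is the brightness of the spot at that percentile, and a difference of 1 is a doubling of signal. Levels are compared within a probe and never between probes. The scanner software calls a spot well above background or not, and 57.3% to 67.8% of 59305 gene spots were so called per array, with none saturated. The retinal genes Rax, Six3, Six6, Pax6, Lhx2 and Crx were well above background on all 9 arrays. The 3 B4KO arrays lay on a slide of their own, scanned apart from the slide of WT and Isl1KO, so line B4KO and slide cannot be told apart. Each day took 1 column of array positions on both slides. Of 10 spike-in RNAs, which are added during labelling, the 7 brightest were 0.38 to 0.59 higher at DD16 than at DD10 on this scale and 0.03 to 0.11 lower at DD23 than at DD16. The spike-in E1A_r60_a107, with a mean level of -3.83, differed by -0.75 between B4KO and WT and by 0.06 between Isl1KO and WT. The 7 brightest were 0.02 to 0.22 higher in B4KO than in WT, and the dimmest, E1A_r60_a104 and E1A_r60_3, were each 0.13 lower. In pooled tissue, fewer cells of a type and less RNA per cell cannot be told apart.

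**Figure D1:**
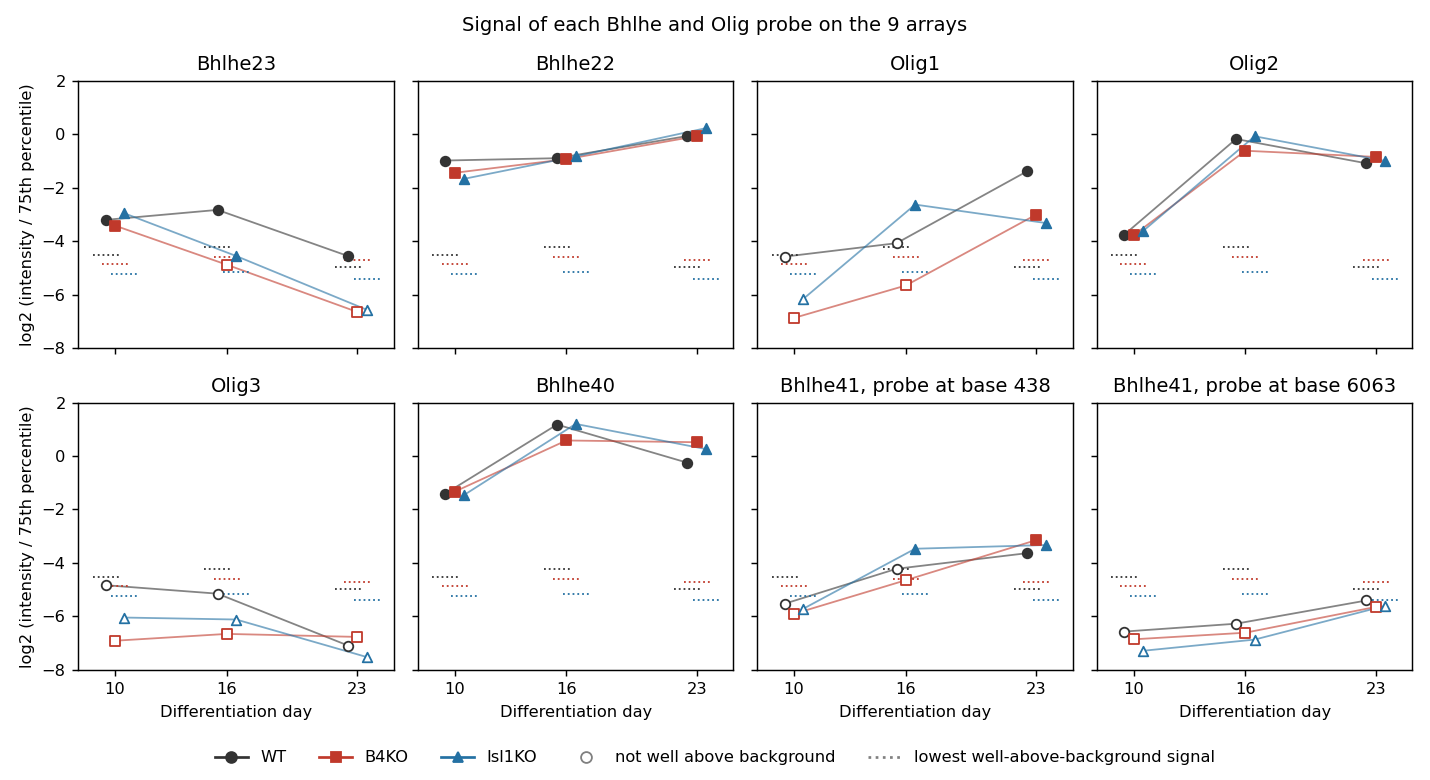
Signal of each of the 8 probes (vertical axis, log2 of intensity over the array's 75th percentile) by differentiation day (horizontal axis) in WT, B4KO and Isl1KO, with 1 array a point; open symbols were not well above background and dotted lines give the lowest well-above-background signal of that array. Olig2 and Bhlhe40 rise from DD10 to DD16 in each line, Bhlhe22 is highest at DD23, and Bhlhe23 is not well above background at DD23 in either knockout.

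By count, 6 of the 8 probes passed the filter of 3 arrays well above background, and Olig3 and the Bhlhe41 probe at base 6063 did not. At DD16 against DD10, 3 of the 6 passed the test, all higher (Olig2, Bhlhe40 and Bhlhe41), where 38.9% of all 36326 probes passed and 20.6% were higher and 18.3% lower. At DD23 against DD16, 4 of the 6 passed, Bhlhe22 higher and Bhlhe23, Olig2 and Bhlhe40 lower, where 38.6% of all probes passed and 18.3% were higher and 20.3% lower. In B4KO against WT, 0 of the 6 passed with limma (2 at an unadjusted p under 0.05, Bhlhe23 and Olig1), where 16.5% of all probes did. Of those 6002 probes, 1100 were higher and 4902 lower in B4KO. In Isl1KO against WT, 0 of the 6 passed with limma (1 at an unadjusted p under 0.05, Bhlhe23), where 0.00275% of all probes did. In Isl1KO against B4KO, 0 of the 6 passed with limma, and 0 at an unadjusted p under 0.05, where 16.5% of all probes did. The median difference of the 6 was 1.68, 0.03, -0.14, 0.00 and 0.24 in those 5 comparisons, beside 0.02, 0.01, 0.02, 0.01 and -0.02 over all probes. A p that misses the threshold does not show that the lines were alike. Both comparisons with WT share its arrays.

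**Figure D2:**
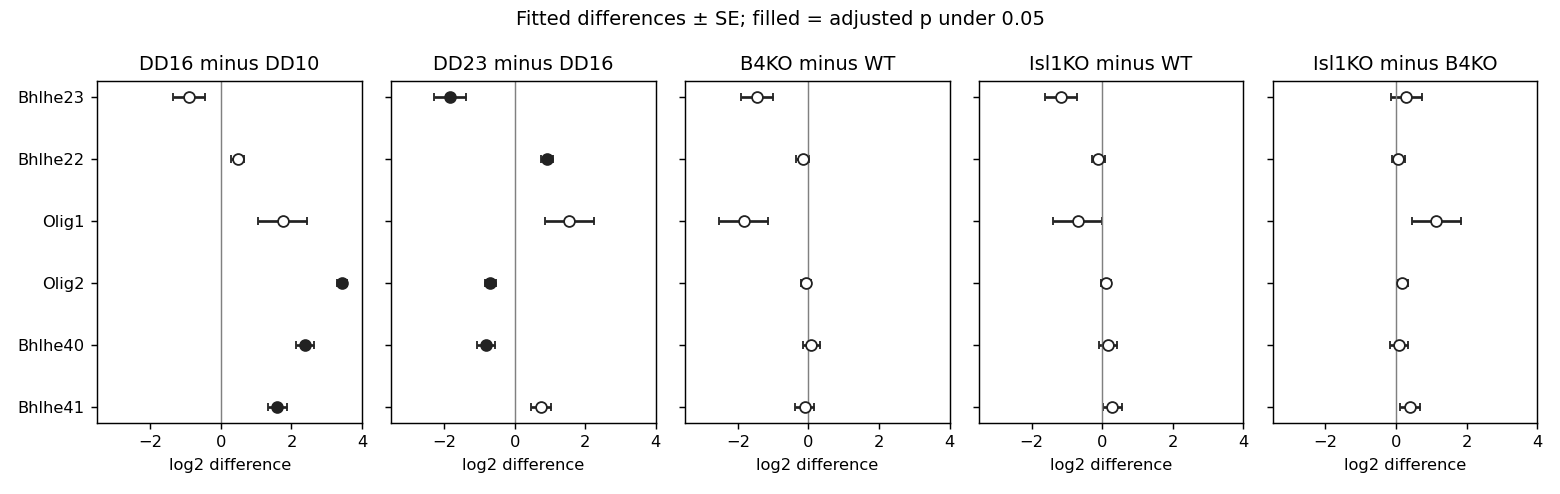
Fitted log2 difference (horizontal axis) with its standard error for the 6 tested probes (rows; Bhlhe41 is the probe at base 438) in 5 comparisons; filled points have a limma adjusted p under 0.05. Olig2 stands at 3.43 at DD16 against DD10, Bhlhe23 at -1.83 at DD23 against DD16, and no point is filled between lines.

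Bhlhe23 was a dim signal that was present at DD10 in all 3 lines and fell by DD23. WT read -3.20 at DD10, -2.82 at DD16 and -4.55 at DD23, all well above background. B4KO read -3.41 at DD10, well above background, then -4.88 and -6.64, which were not. Isl1KO read -2.95 and -4.55, both well above background, and then -6.56, which was not. At DD10 the lines lay close together, whereas at DD16 and DD23 WT was above both knockouts.

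In scanner units the Bhlhe23 spot gave 124 ± 17.4 in WT, 101 ± 13.9 in B4KO and 147 ± 16.4 in Isl1KO at DD10, where the error is the scanner software's estimate for 1 spot. At DD16 it gave 134 ± 18.5 in WT, 30.6 ± 10.1 in B4KO and 40.8 ± 7.81 in Isl1KO. At DD23 it gave 40.1 ± 8.40 in WT, 9.13 ± 9.15 in B4KO and 9.91 ± 5.54 in Isl1KO. The gap between WT and each knockout at DD16 was thus wider than the scanner errors of the spots, while B4KO and Isl1KO lay within them. These errors cover reading of a spot and not the spread between organoid pools.

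**Figure D3:**
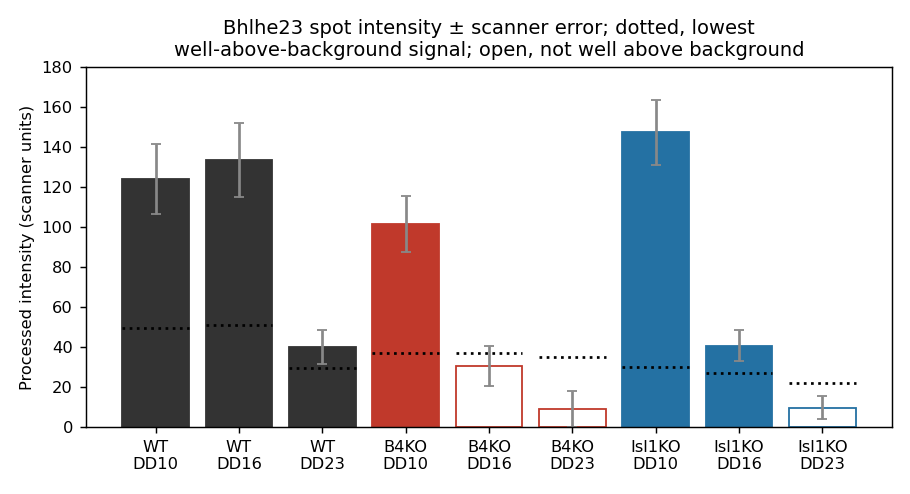
Processed intensity of the Bhlhe23 spot (vertical axis, scanner units, not scaled between arrays) on each of 9 arrays, with the scanner software's error for the spot as bars; dotted lines give the lowest well-above-background signal and open bars were not well above background. Signal of 101 to 147 at DD10 in all 3 lines stayed at 134 in WT at DD16 and was 30.6 and 40.8 in the knockouts.

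The step from DD16 to DD23 in Bhlhe23 was a fall of 1.83 ± 0.45 on the log2 scale (limma, SE, adjusted p = 0.0219), lower in 3 of 3 lines. WT fell 3.31-fold and Isl1KO at least 1.80-fold, while neither B4KO array was well above background, so no fold is given for B4KO. With dim values raised to the lowest well-above-background signal of their array it was -0.90 with an adjusted p of 0.112, and within the slide of WT and Isl1KO it was -1.87 with an adjusted p of 0.0921. The call was lost without any 1 of 5 arrays (WT at DD16, and B4KO and Isl1KO at DD16 and DD23), with values of -1.54 to -1.99. From DD10 to DD16 the fitted difference was -0.90 ± 0.45 (limma adjusted p = 0.160): WT was 0.37 higher at DD16, Isl1KO was 3.03-fold lower and B4KO at least 2.26-fold lower.

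Between lines, Bhlhe23 did not pass the test. The fitted difference from WT was -1.45 ± 0.45 in B4KO (limma adjusted p = 0.0790), with B4KO lower on 3 of 3 days, and -1.16 ± 0.45 in Isl1KO (adjusted p = 0.622), with Isl1KO lower on 2 of 3. On single days the difference of B4KO from WT was -0.22 at DD10, and its signal was below that of WT by at least 3.41-fold on DD16 and at least 1.12-fold on DD23. Isl1KO was 0.25 above WT at DD10, and 3.31-fold and at least 1.80-fold below it on the later days. The difference between the knockouts was 0.29 ± 0.45 (adjusted p = 0.705). Since the labels do not give the deleted part, signal at this probe in B4KO at DD10 checks neither the label nor the deletion. The spike-in E1A_r60_a107 was also lower in B4KO, by 0.75, while the 7 brightest spike-ins were 0.02 to 0.22 higher. The part of such differences in the result was not tested. With the variance prior following intensity, B4KO against WT in Bhlhe23 passed at an adjusted p of 0.0454, and without the WT array at DD10 it was -2.12 with an adjusted p of 0.00518. With dim values raised to the lowest well-above-background signal it was -0.71 (adjusted p = 0.250) and with normexp background correction -0.56 (adjusted p = 0.0557). Without any other 1 array it lay between -1.72 and -1.08 and did not pass.

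Bhlhe22 was well above background on all 9 arrays and highest at DD23. At DD10 it read -0.98 in WT, -1.44 in B4KO and -1.66 in Isl1KO. At DD16 the lines met at -0.89, -0.92 and -0.82, and at DD23 they read -0.06, -0.06 and 0.24 in the same order. The days did not overlap, and the lines were farthest apart at DD10. The rise from DD16 to DD23 was 0.92 ± 0.18, or 1.89-fold (limma adjusted p = 0.0113), and the step from DD10 to DD16 was 0.48 ± 0.18 (adjusted p = 0.0830). Within the slide of WT and Isl1KO the later step was 0.94 with an adjusted p of 0.0717, and without WT at DD16 it was 0.84 with an adjusted p of 0.0524. Bhlhe22 differed from WT by -0.17 ± 0.18 in B4KO (adjusted p = 0.562) and by -0.11 ± 0.18 in Isl1KO (adjusted p = 0.905), and the sign of the first turned with median centring (0.06).

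Prdm8, the repressor that works with Bhlhe22 in mouse retina and cortex, rose by 1.35 ± 0.21 from DD10 to DD16 (adjusted p = 0.00572). Its levels were -1.42, -0.50 and -0.84 at DD10 in WT, B4KO and Isl1KO, and 1.06, 0.94 and 1.42 at DD23. In the list of OFF bipolar genes with Prdm8, 9 of 10 genes were tested, of which 4 rose at DD16, Lhx3, Prdm8 and Otx2 among them, and at DD23 5 rose and 2 fell. Cabp2, a calcium-binding protein of cone bipolar cells, was not well above background at DD16 and rose at least 2.86-fold by DD23 (adjusted p = 0.000869). Of 10 tested rod and ON bipolar genes, 3 rose and 1 fell at DD16, and 5 rose and 3 fell at DD23. Over all probes, 20.6% were higher and 18.3% lower at DD16, and 18.3% higher and 20.3% lower at DD23. These shares stand beside the day counts of every list. Gng13, which encodes a G protein gamma subunit of ON bipolar cells, gained signal, by 2.84 ± 0.15 at DD16 (adjusted p = 0.000306) and by 2.99 ± 0.15 at DD23 (adjusted p = 0.000591). Trpm1, which encodes the transduction channel of ON bipolar cells and is also made in pigment cells, fell by 2.16 ± 0.25 at DD16 (adjusted p = 0.00227) and by 1.36 ± 0.25 at DD23 (adjusted p = 0.00862). Between B4KO and WT, 1 of the 10 passed, the glutamate receptor gene Grik1, which is not particular to rod and ON bipolar cells. It was lower in B4KO by 0.95 ± 0.09 (adjusted p = 0.00132), with 2.17, 2.49 and 2.40 in B4KO against 3.27, 3.42 and 3.22 in WT. The other 9, Gng13 and Trpm1 among them, did not pass. Over all probes, 16.5% passed between these lines, which lay on different slides. The median difference of the 10 was -0.22, beside 0.02 over all probes tested. With median centring both moved by the same amount, to 0.01 and 0.26, so this setting cannot change the gap between them.

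Olig2 had the largest rise of the 6 tested probes from DD10 to DD16. It read -3.75, -3.77 and -3.62 at DD10 in WT, B4KO and Isl1KO, with a mean of -3.72 ± 0.08 (SD, n = 3 lines). At DD16 it read -0.17, -0.61 and -0.07, and at DD23 -1.08, -0.84 and -0.99. The days did not overlap, and DD16 was the highest in every line. The rise to DD16 was 3.43 ± 0.15, or 10.8-fold (limma adjusted p = 0.000187), and 3.57 within the slide of WT and Isl1KO (adjusted p = 0.00521). The fall to DD23 was 0.69 ± 0.15, or 1.61-fold (adjusted p = 0.0143), and lost its call, at 0.0607 to 0.0636, without WT or Isl1KO at DD16 or at DD23. No difference between lines passed: Olig2 differed from WT by -0.07 ± 0.15 in B4KO (adjusted p = 0.762, and 0.16 with median centring) and by 0.11 ± 0.15 in Isl1KO (adjusted p = 0.878).

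Genes of neurogenic progenitors, the cells in which Olig2 is known in retina, changed over the same days. Of 13 neurogenic progenitor genes, 11 rose and none fell at DD16 with a median of 1.77, and 3 rose and 5 fell at DD23. Neurod4, a bHLH factor of newly made neurons, rose by 4.38 ± 0.33 at DD16 (adjusted p = 0.000712). Atoh7, the proneural factor needed for ganglion cells, fell by 4.53 ± 0.39 at DD23 (adjusted p = 0.00111). Of the 7 E and Id proteins, which pair with bHLH factors and either support or block their binding to DNA, 6 fell at DD16 and 5 at DD23. Id3 fell by 2.04 ± 0.17 at DD16 (adjusted p = 0.000903) and Id2 fell by 1.56 ± 0.16 (adjusted p = 0.00169). The E proteins Tcf3, Tcf4 and Tcf12 fell at DD16 too, by 0.50, 0.635 and 0.41 (adjusted p = 0.00769, 0.0124 and 0.0172). Of 12 amacrine genes, 6 rose at DD16, led by Ptf1a, a bHLH factor of amacrine and horizontal cells, which was well above background on no array at DD10 and rose at least 54.6-fold (adjusted p = 0.000206). At DD23, 5 amacrine genes rose and 3 fell.

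Olig1 was well above background on 4 of 9 arrays. At DD10 no array was well above background, with -4.57 in WT, -6.87 in B4KO and -6.15 in Isl1KO. At DD16 Isl1KO alone was, at -2.62, beside -4.07 in WT and -5.65 in B4KO. At DD23 all 3 were, at -1.38 in WT, -3.00 in B4KO and -3.31 in Isl1KO. WT at DD23 was thus the brightest of the 9 arrays, and Isl1KO reached its highest value at DD16.

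On single arrays, Olig1 in WT was at least 6.45-fold higher at DD23 than at DD16 and in B4KO at least 3.02-fold, while Isl1KO differed by -0.69. At DD16 Isl1KO was at least 2.72-fold above WT, and at DD23 it was 3.82-fold below it, with B4KO 3.07-fold below WT. Over all arrays no difference passed, and the fitted values rest in part on dim spots. The fitted step to DD16 was 1.75 ± 0.69 (limma adjusted p = 0.0923), where only Isl1KO was well above background, at least 6.10-fold above its DD10 array. The step to DD23 was 1.55 ± 0.69 (adjusted p = 0.126), and B4KO against WT was -1.83 ± 0.69 (adjusted p = 0.129). Isl1KO differed from WT by -0.69 ± 0.69 (adjusted p = 0.828). Without the array of Isl1KO at DD16 the step to DD23 was 2.56 (adjusted p = 0.00838) and B4KO against WT was -1.83 (adjusted p = 0.00755), while the step to DD16 was 0.74 (adjusted p = 0.0921). No other omission of 1 array gave a call, and these differences then ran from 0.96 to 2.23 for DD23, from -2.43 to -1.42 for B4KO and from 1.42 to 2.34 for DD16. With dim values at the lowest well-above-background signal they were 1.20, -0.82 and 1.11, with normexp 0.77, -0.71 and 0.78, and within the slide of WT and Isl1KO the step to DD23 was 1.0 (adjusted p = 0.453).

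Of 12 oligodendrocyte lineage genes on the array, 11 were tested, and Nkx2-2 was not well above background on any array. At DD16 4 rose and 2 fell, and at DD23 4 rose and 1 fell; with median centring the counts were 2 and 3 at DD16 and 1 and 2 at DD23. Mbp, which encodes a major myelin protein, was well above background on all 9 arrays, at 1.46 to 2.37. Sox10, a factor of neural crest and oligodendrocytes, fell at DD23 by 1.13 ± 0.24 (adjusted p = 0.0135). Mag, Sox10 and Mog were lower in B4KO than in WT, by log2 differences of -1.48 ± 0.08 (adjusted p = 0.000484), -1.37 ± 0.24 (adjusted p = 0.0125) and -0.88 ± 0.10 (adjusted p = 0.00230), and no other gene of the list passed there. Over all probes, 16.5% passed in B4KO against WT, which lay on different slides, and 4902 of those 6002 were lower. Mag and Mog were also higher in Isl1KO, on the slide of WT, than in B4KO, by 1.54 ± 0.08 and 0.96 ± 0.10 (adjusted p = 0.000356 and 0.00164). Isl1KO differed from WT in Sox10 by -1.34 ± 0.24 (adjusted p = 0.308). Of 11 ventral neural tube genes, among which Olig2 is known in the spinal cord, 5 were tested, and Foxa2, Nkx2-9 and Mnx1 were well above background on no array. At DD16 2 of the 5 rose, Isl2 by 4.03 ± 0.22 (adjusted p = 0.000317) and Lhx3, and 2 fell, Irx3 and Dbx1. Lhx3 was also counted in the list of OFF bipolar genes above. At DD23 1 rose and 2 fell.

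Olig3 was not well above background on any array. It ranged from -7.52 to -4.83, and 5 of its 9 values were substitutes that the scanner software sets for spots at or under background. Its highest value, WT at DD10, was an intensity of 39.7 where the lowest well-above-background signal of that array was 49.5, so no fold is given. Of 12 genes of the dorsal neural tube, where Olig3 is known to act, 9 were tested and 6 fell and 1 rose at DD16. Wnt3a, a signal of the dorsal midline, fell by 4.78 ± 0.26 (adjusted p = 0.000317) and Msx2, a homeodomain factor there, by 1.68 ± 0.12 (adjusted p = 0.000571). Atoh1 and Tlx3 were well above background on no array. In B4KO 4 of the 9 were lower than in WT, among them Lmx1b, by -0.83 ± 0.10 (adjusted p = 0.00360). Over all probes, 16.5% passed between B4KO and WT, which lay on different slides, and 4902 of those 6002 were lower in B4KO.

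Bhlhe40 followed a course like that of Olig2. It was well above background on all 9 arrays, and read -1.41, -1.34 and -1.46 at DD10 in WT, B4KO and Isl1KO, a mean of -1.40 ± 0.06 (SD, n = 3 lines). At DD16 it read 1.18, 0.58 and 1.20, and at DD23 -0.25, 0.52 and 0.26. Every value at DD10 was below all later ones, and every value at DD16 was above all those at DD23. The rise to DD16 was 2.39 ± 0.25, or 5.24-fold (limma adjusted p = 0.00168), and 2.63 within the slide of WT and Isl1KO (adjusted p = 0.00787).

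The fall of Bhlhe40 to DD23 was 0.81 ± 0.25, or 1.76-fold (limma adjusted p = 0.0446), and lost its call without any 1 of 7 arrays, all but B4KO at DD16 and at DD23, at adjusted p of 0.0650 to 0.159. Within the slide of WT and Isl1KO it was -1.19 (adjusted p = 0.0234). The step in B4KO lay above that of the other lines by 1.12 ± 0.31 for Bhlhe40 and by 0.69 ± 0.18 for Olig2, in a model with its own steps for B4KO that was chosen after seeing the data, and neither passed (limma adjusted p = 0.835 and 0.794; 0 of 36326 probes passed there, 1892 at an unadjusted p under 0.05). Bhlhe40 differed from WT by 0.08 ± 0.25 in B4KO (adjusted p = 0.844) and by 0.16 ± 0.25 in Isl1KO (adjusted p = 0.895).

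Bhlhe41 came up from background over the same days at the probe at base 438. No array was well above background at DD10, with -5.53 in WT, -5.91 in B4KO and -5.71 in Isl1KO. At DD16 Isl1KO was, at -3.47, beside -4.22 in WT and -4.65 in B4KO, and at DD23 all 3 were, at -3.64, -3.15 and -3.33. The days did not overlap between DD10 and the later days. The fitted rise to DD16 was 1.60 ± 0.28 (limma adjusted p = 0.00736), and 0.78 with dim values at the lowest well-above-background signal (adjusted p = 0.0997). It rests in part on dim spots, since at DD16 only Isl1KO was well above background, at least 3.39-fold above its DD10 array. The step to DD23 was 0.74 ± 0.28 (adjusted p = 0.0790), and 1.05 without Isl1KO at DD16 (adjusted p = 0.0347). The probe at base 6063 was well above background on no array, with a range of -7.29 to -5.41, so the pair of probes did not read alike. By line, Bhlhe41 at base 438 differed from WT by -0.11 ± 0.28 in B4KO (adjusted p = 0.818, and 0.23 with quantile normalization) and by 0.29 ± 0.28 in Isl1KO (adjusted p = 0.816).

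Circadian clock genes, which Bhlhe40 and Bhlhe41 are known to repress or to be driven by, were higher at DD16. Of 18 genes, 17 were tested, and 16 rose and none fell, with a median of 0.78 beside 0.02 over all probes tested; 14 rose with median centring. Rorb, a nuclear receptor needed for rods in mouse, rose by 1.84 ± 0.32 (adjusted p = 0.00750). Nr1d1, a clock repressor, rose by 1.36 ± 0.22 (adjusted p = 0.00634). At DD23, 4 rose, among them Arntl, the partner of Clock, by 0.75 ± 0.12 (adjusted p = 0.00593). Of 12 hypoxia targets, 7 rose at DD16, led by Ndrg1 at 2.51 ± 0.10 (adjusted p = 0.000180) and Adm at 2.17 ± 0.19 (adjusted p = 0.00101), and at DD23 1 rose and 3 fell. Vegfa, which drives vessel growth, rose by 1.16 ± 0.10 at DD16 (adjusted p = 0.000871) and fell by 0.33 ± 0.10 at DD23 (adjusted p = 0.0374). The hour of harvest is not given by the labels.

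**Figure D4:**
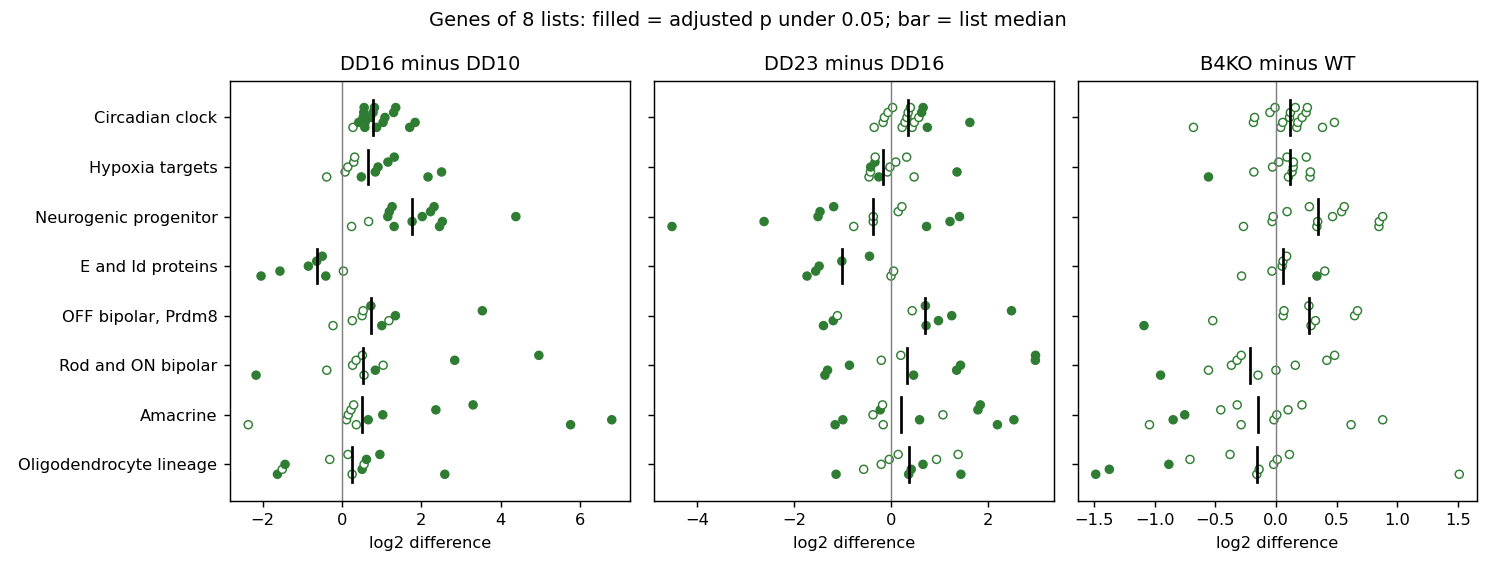
Fitted log2 differences (horizontal axis) of the tested genes of 8 lists (rows) at DD16 against DD10, DD23 against DD16 and B4KO against WT; each point is 1 gene, filled where the limma adjusted p is under 0.05, and the black bar is the list median. At DD16 16 of 17 clock genes and 11 of 13 neurogenic progenitor genes are filled on the right, and in B4KO against WT no gene of either list is filled.

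Likeness of course over the 9 arrays was described with Pearson's r among 15215 named genes, where the arrays share their days. From 0.197% of these genes (for Bhlhe23) to 7.34% (for Bhlhe22) had an r over 0.9. Bhlhe23 was well above background on 6 arrays, and Olig1 and Bhlhe41 on 4 each, so every r of these members rests in part on dim spots. Bhlhe22 had 1117 genes with r over 0.9, Bhlhe41 767, Olig2 410, Bhlhe40 268, Olig1 49 and Bhlhe23 30. The genes most like Bhlhe23 were Smg1 and Lbx2 (r of 0.95 each) and Ube2d1 (0.94). Those most like Bhlhe22 were Lrrc4, Gpm6b and Sh3gl2 (0.99 each), and those most like Olig2 were Rnf144b, Kazald1 and Cox4i2 (0.99 each). Bhlhe40 was most like Gtpbp6 (0.99), Plekhh3 and Kcnk1 (0.98 each), Bhlhe41 like Nos3, Itga11 and Ier3 (0.98 each), and Olig1 like Nwd2 (0.96), Olfr744 and Abcc3 (0.95 each). Among the members, Olig2 and Bhlhe40 had an r of 0.97, Olig1 and Olig2, neighbours on chromosome 16, had 0.64, and Bhlhe23 and Bhlhe22 had -0.82.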

How the data were processed

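RNA of 9 pools of 5 organoids, 1 per line and day, was labelled with 1 dye and read on Agilent arrays. Agilent Feature Extraction 12.0.3.1 gave each spot's processed intensity, background-subtracted, detrended and with substitute values for dim spots, without scaling between arrays, per the file headers. In the deposited table, each value above 1 was a ratio of that intensity to a constant per array, and the 75th percentile was 1.00; this table was used as an alternative.

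Spots of 1 probe were averaged, 102 probes with outlier flags were left out, and log2 intensity minus the array's log2 75th percentile was taken. Of 56605 probes, 32994 were matched by accession to RefSeq names (GRCm38.p6) and 23611 kept the file's name. The 36326 probes well above background on at least 3 of 9 arrays were tested in limma 3.58.1 (R 4.3.3), with line and day as additive terms (4 residual degrees of freedom), Benjamini-Hochberg adjustment over all of them and a threshold of 0.05. No line and day was repeated, so standard errors and p-values rest on departure from additivity plus noise. Where a group was never well above background, "at least" raises each dim value to the lowest such signal of its array. A dim value already above that signal is kept, as for Olig1 in WT at DD16. The step model for B4KO was added after the data were seen. The code was tested on simulated data.

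Members and 15 gene lists were chosen with earlier results of these data known. Named were all members, up to 4 of the largest passing differences of a list in a comparison and the 3 genes most like each member, and others as markers; list genes used their brightest tested probe. Some genes that this rule names are not reported here.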

Additional observations from a re-analysis of the deposited data

Results flagged for a closer look

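Single arrays of 2 lines moved in opposite directions for 2 members, and these differences were not tested, since each compares 4 arrays with no replicate. From DD10 to DD16 Bhlhe23 changed by 0.37 in WT and -1.60 in Isl1KO, a gap of 1.97 on the log2 scale. From DD16 to DD23 Olig1 changed by 2.69 in WT, where the DD16 array was not well above background, and by -0.69 in Isl1KO, a gap of 3.38.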

How the results depend on the processing

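The rises of Olig2, Bhlhe40 and Bhlhe41 from DD10 to DD16 kept their calls under every alternative run, except Bhlhe41 with dim values raised to the lowest well-above-background signal. Of the members, 1 passed in B4KO against WT with an intensity trend, and 2 passed at DD23 against DD16 within the slide of WT and Isl1KO. Leaving out each array in turn gave 0 to 1 calls in B4KO against WT (1 without WT at DD10 and 1 without Isl1KO at DD16), 3 to 5 at DD16 against DD10 (5 without WT at DD10) and 0 to 3 at DD23 against DD16 (0 without WT at DD16, 1 without Isl1KO at DD23, 2 without WT at DD23), and 0 in the other comparisons. The fall of Bhlhe40 to DD23 lost its call with quantile normalization (adjusted p = 0.0506), with no filter (0.0856) and with 1 array above background (0.0638). Median centring raised the median of all probes in B4KO against WT from 0.02 to 0.26, and the share of higher calls there from 18.3% to 73.2% (31.3% with quantile normalization, 31.6% with normexp, 33.1% with the intensity trend); at DD16 against DD10 it took that share from 52.9% to 38.7% and at DD23 against DD16 from 47.3% to 31.1%. All signs that turned were of differences between lines that had not passed, and their cause was not tested. With median centring, Bhlhe22, Bhlhe41 and Olig2 in B4KO against WT became 0.064, 0.13 and 0.16, and Bhlhe22 and Bhlhe40 in Isl1KO against B4KO became -0.10 and -0.082. Quantile normalization gave 0.23 for Bhlhe41 and 0.055 for Olig2 in B4KO against WT, normexp gave 0.038 for Bhlhe41 there, and dim values at the lowest signal gave -0.062 for Bhlhe23 in Isl1KO against B4KO. Leaving out 1 array, B4KO against WT ranged from -0.31 to 0.051 for Bhlhe22, -0.18 to 0.39 for Bhlhe40, -0.40 to 0.17 for Bhlhe41 and -0.23 to 0.11 for Olig2; Isl1KO against WT from -0.27 to 0.11 for Bhlhe22, -0.10 to 0.36 for Bhlhe40 and -0.022 to 0.48 for Bhlhe41; and Isl1KO against B4KO from -0.10 to 0.28 for Bhlhe22, -0.10 to 0.56 for Bhlhe23 and -0.23 to 0.33 for Bhlhe40. The additive terms already compare lines within days and days within lines, and no replicate block could be added, since each line and day had 1 sample. Bhlhe23, Olig1, Olig3 and Bhlhe41 lie near background, which limits their folds to bounds, and the number of arrays limits all precision.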

Other observations

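Lists of other cell types give the setting in which the bHLH genes moved. Over all probes, 20.6% were higher and 18.3% lower at DD16, and 18.3% higher and 20.3% lower at DD23. Of 11 tested photoreceptor genes, 7 rose at DD16 and 11 rose at DD23 (limma), and Crx, the homeodomain factor of photoreceptors, rose by 4.13 ± 0.19 at DD16 (adjusted p = 0.000230). Of 12 retinal progenitor genes, 6 rose and 2 fell at DD16, and 1 rose and 7 fell at DD23, among them Fgf15, a progenitor growth factor, which fell by 3.71 ± 0.24 (adjusted p = 0.000722). Of 7 tested pigment epithelium genes, 5 fell at DD16 and 2 at DD23, and Mitf, the pigment cell regulator, fell by 2.60 ± 0.18 at DD16 (adjusted p = 0.000566). Of 8 Mueller glia genes, 2 rose and 2 fell at DD16, and 3 rose and 2 fell at DD23. Of 5 tested pluripotency genes, none passed the test over the days, and Tdgf1 and Pou5f1 were lower in B4KO than in WT, by log2 differences of -1.04 ± 0.14 (adjusted p = 0.00499) and -0.64 ± 0.12 (adjusted p = 0.0147). Tdgf1 and Pou5f1 were also higher in Isl1KO, on the slide of WT, than in B4KO, by 1.08 ± 0.14 and 0.77 ± 0.12 (adjusted p = 0.00415 and 0.00676). Over all probes, 16.5% passed between B4KO and WT, on different slides, and 4902 of those 6002 were lower in B4KO.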
